A study of Canis lupus familiaris with 12 samples.

Results

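Toll-like receptors are membrane proteins that recognise microbial molecules and signal through NF-kappaB to cytokine genes. TLR1 sits at the cell surface, where it pairs with TLR2 to bind bacterial lipopeptides, and TLR9 sits in endosomes and binds unmethylated CpG DNA. CASP4 in humans is an inflammatory caspase that acts inside the cell, where it responds to bacterial lipopolysaccharide and cleaves gasdermin D to open pores in the membrane. HMGB1 is an abundant chromatin protein that, once outside the cell, acts as an alarm signal through the receptor AGER and through Toll-like receptors.

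The genes TLR1, TLR9, CASP4 and HMGB1 were followed in MDCK cells, an established epithelial line from dog kidney tubule, to see whether these sensing and alarm genes differed in acid medium. They are 4 of the 944 genes that could be named on the array. Every probe whose RefSeq transcript belongs to 1 of them was taken and kept on its own, which gave 5 of 43603 probes, 2 of them for HMGB1. Confluent cells were kept in serum-free medium and then held for 24 h at pH 7.0, reached by lowering bicarbonate, or at pH 7.4 as control. The 3 biological replicates, extracted on different dates, each gave 1 RNA per pH, and each RNA was read on 2 one-colour arrays, so 6 arrays stood in each group. The cells are 1 line with no treatment beyond the medium. The spread between replicates is that between extractions of this line, together with the slide and scan date of each. Fewer cells expressing a gene and less of its RNA per cell cannot be told apart in such bulk RNA.

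A level is the log2 processed Cy3 signal after subtraction of its array's 75th percentile, so a negative level lies below that percentile. A change is the level at pH 7.0 minus that at pH 7.4 within a biological replicate, given as a mean ± its standard error from limma over 3 pairs. That error draws in part on the spread of all tested probes. Across the 12 arrays 49.4% to 70.4% of probes were well above background, and the 75th percentile of signal lay between 410.2 and 944. Biological replicate 2 had the lowest shares, 49.4% to 54.1%. The lowest signal marked well above background was 16.0 to 27.2 on its arrays, against 6.39 to 9.35 on the others. The mark thus asked for more signal in biological replicate 2, and its counts are not on 1 scale across replicates. Each biological replicate lay on its own slide and scan date, so a change is always taken within 1 slide. A probe was tested where 6 or more arrays of the 12 had it well above background, which 27136 probes met. The limma fit called 0 of them (0%) at the adjusted threshold of 0.05, and 3324 (12.2%) fell below 0.05 before adjustment. Of 13 epithelial markers 4 had a named probe, all of them tight junction genes. CGN, OCLN and TJP1 were well above background on 12 of 12 arrays by every probe, and CLDN2 on 7 or 8 by probe. By their brightest probes the changes ran from -0.10 for TJP1 to 1.15 for CLDN2, none past the threshold. Of 14 renal tubule markers 3 had a named probe: ATP1B1 was well above background on 12 of 12 arrays, AQP1 on 5 and UMOD, a marker of the thick ascending limb, on 0. Of 11 fibroblast and endothelial markers 6 had a named probe. COL1A1, COL1A2 and VWF were well above background on 12 arrays and PDGFRB on 10 by their brightest probes, with other collagen probes between 0 and 10, KDR on 3 and DCN on at most 1. The tested ones had changes from -0.21 to 0.43 by those probes, none past the threshold. Of the leukocyte markers, 6 of 14 had a named probe. CD163, CD80 and MS4A1 were well above background on at most 1 of 12 arrays by any probe, CD4 on 5, CD8A on at most 7 and CD86 on 12. The part of any such signal in the results was not tested.

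None of the 5 probes passed the threshold, so no change is called for TLR1, TLR9, CASP4 or HMGB1. By 1 probe of HMGB1, detected on all 12 arrays, the mean level was 1.59-fold higher at pH 7.0, with the same sign in all 3 biological replicates. TLR1 and CASP4 also had higher mean signal in all 3, but were well above background on only 8 and 6 of the 12 arrays, and the CASP4 values of biological replicate 2 were all below that mark. TLR9 and the other HMGB1 probe had no common direction. Of all tested probes 18% were higher in all 3 biological replicates, against 3 of these 5, and 15.7% were lower in all 3, against 0 of 5, which makes 33.7% of 1 direction. A limma p under 0.05 before adjustment with a higher level at pH 7.0 was found for 6.48% of tested probes and for the same 3 of 5, and with a lower level for 5.77% and 0 of 5. A change above 0 was found for 51.3% and for 3 of 5. Since these genes were picked with earlier results of the same arrays known, those shares describe the probes and support nothing further. In none of the 5 did the arrays of the groups separate, and in none did the RNA values separate, as they did for 1.64% and 8.09% of tested probes (4.48% with pH 7.0 higher).

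**Figure D1:**
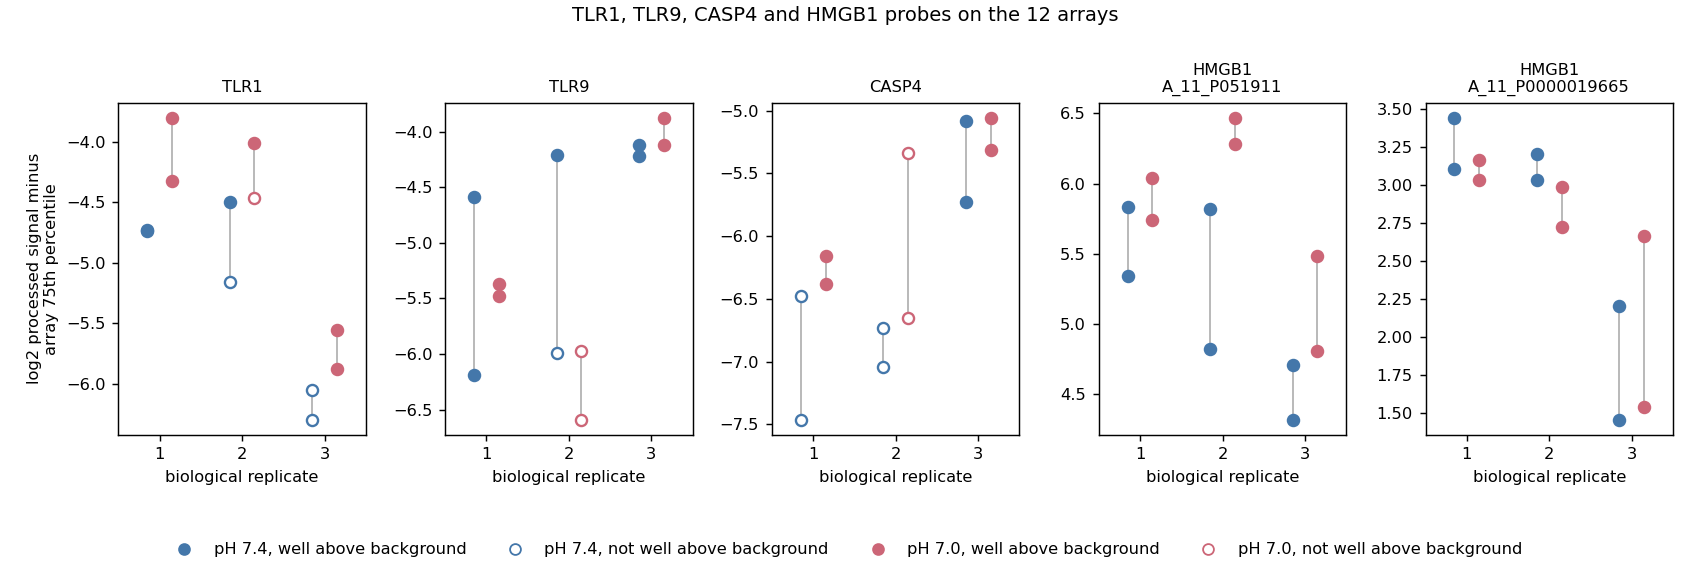
Level of each probe on the 12 arrays (vertical axis, log2 relative to the 75th percentile of its array, with its own range in each panel) by biological replicate (horizontal axis). Points are arrays, a grey line joins the 2 arrays of an RNA, and open points were not well above background. TLR1 arrays at pH 7.0 lie above those at pH 7.4 within each biological replicate, while TLR9 and CASP4 hold open points throughout biological replicate 2 except 1 TLR9 array.

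TLR1 had similar differences in the 3 biological replicates. Its probe, A_11_P109826, was read at -4.06, -4.24 and -5.72 in the RNAs of biological replicates 1 to 3 at pH 7.0. At pH 7.4 the same replicates gave -4.73, -4.83 and -6.17. Biological replicate 3 was the low one at both pH values, so the groups overlapped although both pH 7.0 arrays lay above both pH 7.4 arrays within every biological replicate. The changes were 0.67, 0.59 and 0.45, with a mean of 0.57 ± 0.22 (1.48-fold; limma adjusted p = 0.342), and the unadjusted 95% interval ran from 0.08 to 1.06. The standard deviation of the 3 changes, 0.108, stood at percentile 6.15 of tested probes, while the RNAs within a group spread with a standard deviation of 0.91 at pH 7.0 and 0.81 at pH 7.4.

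The TLR1 spot was near the detection limit on part of the arrays. Its processed signal ran from 7.74 to 58.8 over the 12 arrays, and the scanner program put the error of a single spot at 10.4% to 26.1% of the signal. Of the 6 arrays per group, 5 at pH 7.0 and 3 at pH 7.4 had TLR1 well above background. All 4 arrays were so in biological replicate 1, where the change was 0.67. In biological replicate 2, 1 of 2 arrays was well above background at each pH, and in biological replicate 3 both were at pH 7.0 and neither at pH 7.4. A background correction that uses the local backgrounds as deposited (normexp) turned the change to -0.44, while the same correction with flagged backgrounds replaced gave 0.18.

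CASP4 had a mean change of 0.60, over spots close to background. In the reference annotation this dog gene also carries the name CASP1 as a synonym and lies beside CASP12, and whether its probe reads a counterpart of human CASP4 or of CASP1, the caspase that matures interleukin-1 beta, was not settled. Probe A_11_P0000019846 stood at -6.27, -6.0 and -5.18 in the 3 RNAs at pH 7.0. At pH 7.4 it stood at -6.97, -6.89 and -5.40. Here biological replicate 3 was the high one in both groups, the reverse of TLR1, and the groups again overlapped. The changes of 0.70, 0.89 and 0.22 averaged 0.60 ± 0.24 (1.52-fold; limma adjusted p = 0.349), with an unadjusted 95% interval from 0.08 to 1.13.

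The pairs of arrays with the larger CASP4 changes held spots that were not well above background. The processed signal ran from 3.88 to 20.6, and the probe entered the test at the minimum of 6 arrays, 4 at pH 7.0 and 2 at pH 7.4. Only biological replicate 3 had all 4 arrays well above background, and it gave the smallest change, 0.22. In biological replicate 1 both pH 7.0 arrays and neither pH 7.4 array were well above background. In biological replicate 2 none of the 4 was, and on 3 of them the processed signal equalled the program's error for that spot within 5%. Over the whole array 99.99% of spots not significantly positive had a signal at that error, against 0.514% of the significant ones. The mean change was 0.46 without biological replicate 2, 0.38 without array 3 of pH 7.0, and -0.59 or 0.11 under the normexp correction as given or with flagged backgrounds replaced.

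**Figure D2:**
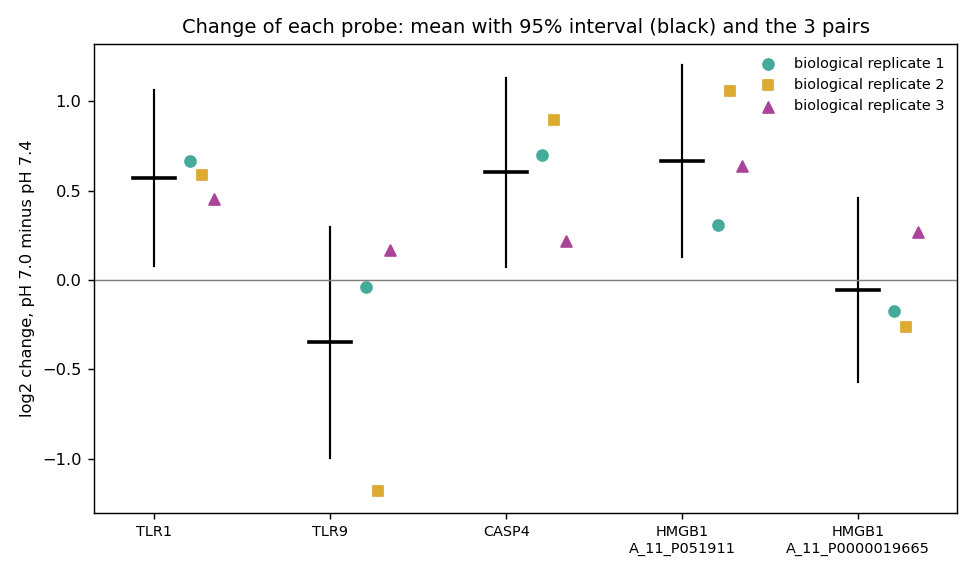
Change of each probe (vertical axis, log2 pH 7.0 minus pH 7.4). The black dash and line are the mean and its unadjusted 95% interval from limma, and coloured symbols are the 3 biological replicates. TLR1 shows 3 close values between 0.45 and 0.67, and TLR9 shows 1 value at -1.18 and the others near 0.

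TLR9 did not move in a common direction. Probe A_11_P0000019724 was at -5.42, -6.28 and -4.0 in biological replicates 1 to 3 at pH 7.0. At pH 7.4 it was at -5.39, -5.10 and -4.17. The pairs of replicates 1 and 3 nearly coincided, with changes of -0.04 and 0.17, and replicate 2 stood apart at -1.18. The mean was -0.35 ± 0.29 (limma adjusted p = 0.682; unadjusted 95% interval -1.0 to 0.30), and the standard deviation of the 3 changes, 0.727, stood at percentile 88.9 of tested probes.

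The negative mean of TLR9 had its largest part in biological replicate 2 and moved with single arrays. There both arrays at pH 7.0 had a processed signal within 5% of the spot's error, 8.01 and 4.26. The pH 7.4 arrays of that replicate, which hold 1 RNA, read 6.50 and 41.2, a gap of 1.78 on the log2 scale, and 1 of them was well above background. In biological replicates 1 and 3 all 8 arrays were well above background. Without biological replicate 2 the change was 0.07. It was -0.05 without array 4 of pH 7.4 and -0.08 without array 1 of pH 7.4. That array 1 and its duplicate, again of 1 RNA, read -4.59 and -6.19. Without array 2 or array 3 of pH 7.4 the change was instead -0.62 or -0.65.

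HMGB1 was well above background on all 12 arrays by both of its probes, with no saturated spot, and the probes differed in their change. Probe A_11_P051911 read 5.89, 6.38 and 5.15 in the RNAs of biological replicates 1 to 3 at pH 7.0. It read 5.59, 5.32 and 4.51 at pH 7.4. Each pair was higher at pH 7.0, by 0.31, 1.06 and 0.63, and the groups overlapped because biological replicate 3 was low in both. The mean change was 0.67 ± 0.24 (1.59-fold; limma adjusted p = 0.308; unadjusted 95% interval 0.13 to 1.2), and it stayed between 0.47 and 0.85 when 1 array or 1 biological replicate was left out.

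The other HMGB1 probe, A_11_P0000019665, read 3.1, 2.86 and 2.10 at pH 7.0. At pH 7.4 it read 3.27, 3.12 and 1.83. Its changes of -0.17, -0.26 and 0.27 lay on both sides of 0, with a mean of -0.06 ± 0.23 (limma adjusted p = 0.951; unadjusted 95% interval -0.57 to 0.46). Biological replicate 3 was the low one at both pH values here as well.

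The difference between the HMGB1 probes had 1 sign in every biological replicate. The change on A_11_P0000019665 minus that on A_11_P051911 was -0.48, -1.32 and -0.36 in replicates 1 to 3, a mean of -0.72 (SD 0.52, n = 3). An exact sign-flip test gave p = 0.25, two-sided, the smallest value 3 pairs allow. In replicate 2 the pH 7.4 arrays 3 and 4, which hold 1 RNA, read 4.82 and 5.82 on A_11_P051911. The mean change on that probe was 0.50 without array 3 and 0.83 without array 4, against 0.67 with both. Across the array 2480 transcripts had exactly 2 tested probes. Their changes differed by a median of 0.109, and the 90th percentile was 0.388. Only 40 of them, 1.61%, differed by as much as HMGB1 did. Opposite signs alone were common, at 18.1% of these transcripts. Over the 12 arrays, each probe centred on its own mean, the HMGB1 probes differed by a root mean square of 0.519, against a median of 0.350 for such pairs, and 25.5% of pairs differed at least as much.

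Duplicate arrays of 1 RNA give the technical error behind these values. The median gap between duplicates was 0.39 for TLR1, 0.43 for TLR9, 0.48 for CASP4, 0.44 for HMGB1 probe A_11_P051911 and 0.30 for HMGB1 probe A_11_P0000019665. Over all tested probes the median of that gap was 0.29. The largest single gaps were 1.78 for TLR9, 1.31 for CASP4 and 1.13 and 0.99 for the HMGB1 probes, A_11_P0000019665 first, each larger than the mean pH change of its probe. For TLR1 the largest gap was 0.66, also above its mean change of 0.57. A gap lies between single arrays, while a mean change averages 2 arrays per RNA over 3 pairs, so these sizes are not like for like. The median gaps of TLR1, CASP4 and A_11_P051911 lay below their mean changes of 0.57, 0.60 and 0.67. Those of TLR9 and A_11_P0000019665 exceeded the size of theirs, -0.35 and -0.06.

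**Figure D3:**
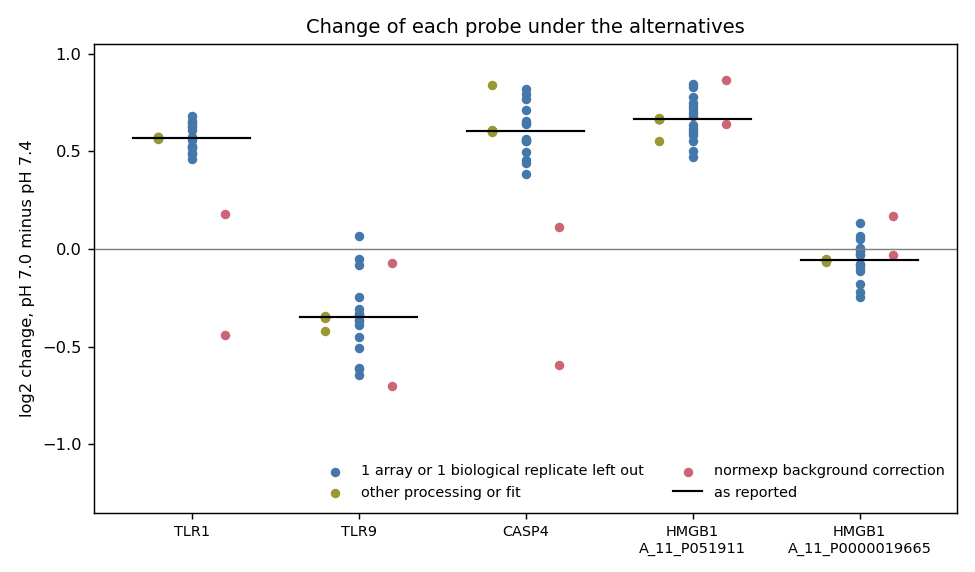
Mean change of each probe (vertical axis, log2 pH 7.0 minus pH 7.4) as reported (black line) and under other choices (points). TLR1 and CASP4 fall below 0 only under the normexp correction with local backgrounds as given, and HMGB1 probe A_11_P051911 stays above 0 under all of them.

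The other Toll-like receptors were mostly at background or had no named probe. Of the 10 family members, 6 had a named probe and 3 were tested. TLR7, an endosomal receptor for single-stranded RNA, was detected on 7 of 12 arrays, with a change of -0.03 ± 0.24 (limma adjusted p = 0.971). TLR2, the partner of TLR1, was not well above background on any of the 12 arrays by either of its 2 probes. The same held for both probes of TLR4, the receptor for lipopolysaccharide at the cell surface and a receptor for HMGB1. TLR10, which lies beside TLR1 in the reference annotation, was detected on 1 array at pH 7.0.

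Partners of these receptors gave few values. None of the 21 adaptor and signalling genes, MYD88 among them, had a named probe here. HSP90B1, the chaperone gp96 that folds Toll-like receptors, had a saturated spot on 3 pH 7.0 and 5 pH 7.4 arrays by probe A_11_P0000020038, where its change was -0.25 ± 0.29. Its unsaturated probe A_11_P186303 gave -1.08, -0.33 and -2.03 in the 3 biological replicates, a mean of -1.15 ± 0.31 (limma adjusted p = 0.205). AGER, the receptor of HMGB1, was tested on 1 of its 3 probes, A_11_P053771, at 0.23 ± 0.23 (limma adjusted p = 0.752). CXCL12, a chemokine that forms a complex with HMGB1, was at background on all 12 arrays.

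**Figure D4:**
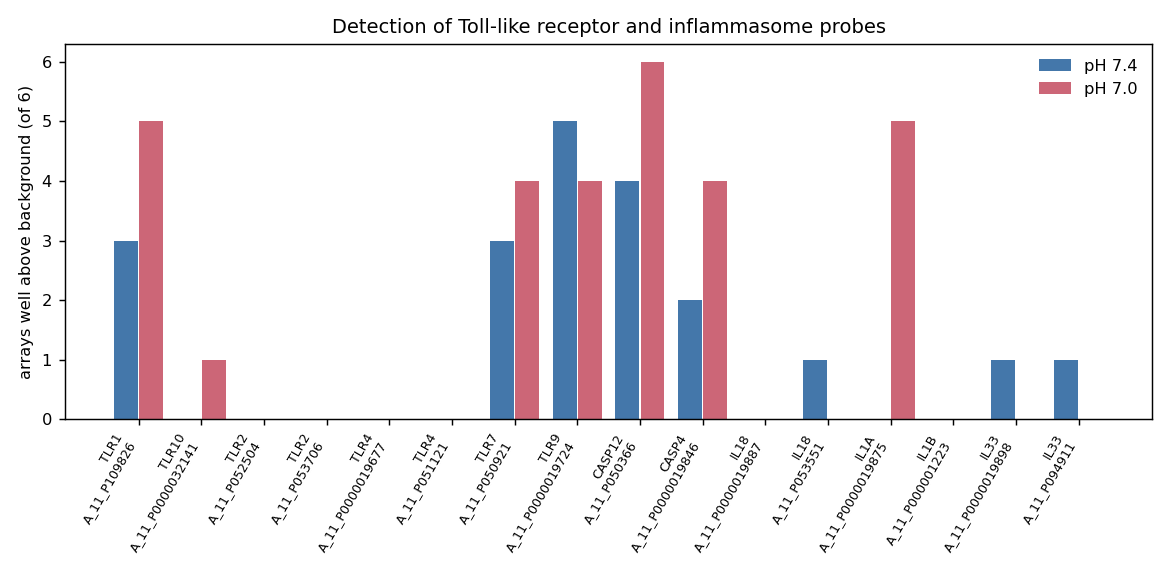
Number of arrays, of 6 per group, on which each named probe of the Toll-like receptor and inflammasome lists was well above background (vertical axis), by probe (horizontal axis) and pH (colour). TLR2, TLR4 and IL1B have no bar. TLR1 and CASP4 were seen on 2 more arrays at pH 7.0 than at pH 7.4, as was CASP12 (6 against 4), and IL1A on 5 against 0. TLR9 was seen on 1 fewer at pH 7.0, as were IL33 by each probe and IL18 by A_11_P053551.

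The inflammasome genes around CASP4 were mostly at background. Of 14 such genes 6 had a named probe, and CASP12 was the other tested one. CASP12, a caspase whose gene neighbours CASP4, gave 0.64, 1.16 and -0.91 in the 3 biological replicates (mean 0.30 ± 0.36, limma adjusted p = 0.796), so its pairs differed in sign where those of CASP4 did not. IL1B, a cytokine released after caspase activation, was well above background on 0 of 12 arrays, and IL18 on at most 1 by either probe. IL33 was detected on 1 array by each of its probes. IL1A was well above background on 5 arrays at pH 7.0 and 0 at pH 7.4, and was too dim for the test.

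Downstream of the receptors, 11 cytokine and enzyme genes of Toll-like receptor signalling had named probes and 8 were tested, each by its brightest tested probe. Of these 7 were higher and 1 lower at pH 7.0, 3 of the higher ones with an unadjusted limma p under 0.05 and none past the adjusted threshold, with a median change of 0.77 against 0.01 over all tested probes. Over all tested probes 51.3% had a change above 0, and 6.48% were higher with such a p. The list was chosen with earlier results of these arrays known, so its counts and median describe these genes and support nothing further. The lower gene was TNF (-0.10 ± 0.22, limma adjusted p = 0.908). The 3 untested genes were near background: IL6 was well above it on at most 2 of 12 arrays by any probe, IL10 on 1 and IL12B on 0. Only CSF2, CCL2 and CXCL8 were higher in all 3 biological replicates by that brightest probe. For CXCL8 it gave 0.13 in replicate 1, where the other tested probes gave 0.27, 0.14 and, on A_11_P053586, -0.75. CXCL10 stood at -1.94 in biological replicate 3, CCL5 at -0.62 and PTGS2 at -0.27 there, and CCL20 at -0.42 in replicate 1 and -0.65 in replicate 3. The 3 of lowest p were CSF2 (3.11 ± 0.38, limma adjusted p = 0.0502), CCL2 (1.64 ± 0.35, adjusted p = 0.136) and CXCL8 (0.86 ± 0.30, adjusted p = 0.290). NFKB1, the only NF-kappaB gene of 11 with a named probe, was at 0.50 ± 0.23 on probe A_11_P050481 (limma adjusted p = 0.420).

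Named genes with the most similar course over the 12 arrays were sought among 594 others, by the root mean square difference of values centred on each probe's mean. For TLR1 they were PNN (0.362), TCOF1 (0.372) and ABCB1 (0.394), against a spread of 0.786 of TLR1 about its own mean. For CASP4 they were HLA-DRB1 (0.398), MYOZ1 (0.413) and the receptor CD40 (0.423), against its own 0.771. TLR9 had TFF2 (0.331), TEKT1 (0.504) and CDC42SE1 (0.571) nearest, against 0.932. HMGB1 differed by probe again. A_11_P0000019665 lay near DLD (0.184), SELENOT (0.230) and PNN (0.295), against 0.621. A_11_P051911 lay near PAX6 (0.363), FUCA1 (0.399) and UNK (0.401), against 0.652. The nearest genes of the 2 HMGB1 probes had no name in common, and arrays of 1 biological replicate share a slide, which enters every one of these distances.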

How the data were processed

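Cy3-labelled cRNA from total RNA was read on Agilent dog arrays, 1 colour each. The scans were read with Agilent Feature Extraction 10.7.3.1, per the submitters' processing notes. The deposited scanner files give intensity values per spot, per the file headers: a processed signal and its error, a median signal and a local background. In the value table the authors deposited log2 values, with scale and centring unstated. By comparison these follow the log2 signal less the 75th percentile of its array, centred per probe (slope 1.00 on every array). They are close to that scale rather than equal to it: the CASP4 change was 0.6037 from the value table and 0.6027 as reported. The medians of its pH 7.0 columns, arrays 1 to 6, are -0.112, -0.150, 0.225, 0.213, -0.226 and 0.0169. Those of its pH 7.4 columns are 0.0200, -0.211, 0.213, 0.0789, -0.0860 and 0.0652. A direction does not apply, and 0 columns belong to other samples.

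Control spots were left out, 128 outlier spots set to missing, saturated spots kept, spots of a probe averaged on the log2 scale, and the array's 75th percentile over probes subtracted. Tested probes carried the well-above-background mark of Feature Extraction on 6 or more arrays. Arrays 1 and 2, 3 and 4, and 5 and 6 of a group, by title, are biological replicates 1 to 3, and the 2 arrays of an RNA were averaged. limma 3.58.1 in R 4.3.3 (lmFit, eBayes) fitted the pH difference, blocked by biological replicate because the design text pairs 1 RNA of each pH in a replicate, two-sided, with Benjamini-Hochberg adjustment over 27136 probes. Deviations from group means correlated at 0.394, 0.637 and 0.807 within pairs and at most at 0.255 between unlike numbers. The p-values rest on the spread between 3 pairs of extractions, each pair read on its own slide, moderated toward the spread of all tested probes. The fit had 9.67 degrees of freedom for this reason. A standard error or p-value is thus not that of the probe's own 3 changes alone, and the number of pairs limits the precision.

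The genes and lists were chosen with earlier results of these data known. All probes of the 4 genes are named. Members of the receptor, chaperone, adaptor, inflammasome and HMGB lists are named if tested, of the NF-kappaB and cytokine lists the 3 of lowest p, and for likeness the 3 nearest genes; untested list members, cell type markers and the other cytokine genes were named after their values were seen. Names came from RefSeq accessions of UU_Cfam_GSD_1.0. No probe sequence or coordinate was used here. Alternatives covered the block, duplicate arrays, normexp (offset 50), scaling, the value table, filters, prior and leaving out arrays or replicates. Figures used python 3.11.15 and matplotlib 3.10.9.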

Additional observations from a re-analysis of the deposited data

Results flagged for a closer look

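The 6 pH 7.0 arrays of HMGB1 probe A_11_P0000019665 held 1 value far below the others. Array 5 stood at 1.54, while the duplicate array of the same RNA stood at 2.67. The gap from array 5 to the nearest of the other 5 was 0.692 of the whole range, above Dixon's critical value of 0.625 for 6 samples. Without array 5 of pH 7.0 the change on that probe was 0.13 rather than -0.06. Array 5 of pH 7.4, of the same biological replicate, was lower still, at 1.46 against 2.21 on its duplicate. Without that array the change was -0.18. Of the 10 sets of 6 arrays examined the pH 7.0 set of this probe was the only one past the critical value. That value is meant for 6 independent values, while these arrays are 3 RNAs read on 2 arrays each. The flag therefore marks the array for a look and gives no rate by chance.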

How the results depend on the processing

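None of the 5 probes passed an adjusted p of 0.05 under any of the alternatives run, leave-outs included. HMGB1 probe A_11_P051911 kept its direction under all 27 (0.47 to 0.87), TLR1, CASP4 and TLR9 under 25 of 26 each. Only the HMGB1 probes were well above background on all 12 arrays, so the others have no value under that filter. Without the replicate block the changes stayed as they were (TLR1 0.57, CASP4 0.60) and every adjusted p was 0.99994. Under normexp with backgrounds as given, TLR1 was -0.44, CASP4 -0.59 and HMGB1 probe A_11_P0000019665 0.17. That setting moved the median of all tested probes to -0.19, and relative to it they were -0.25, -0.40 and 0.36. The highest local backgrounds were 24963 and 65528 on pH 7.4 arrays 3 and 4, against at most 75.5 on the others. With flagged backgrounds replaced no sign turned. The offset of 50 is above the processed signal of CASP4 on every array, but normexp starts from the median signal and the local background instead. For CASP4 these were 106 to 118 and 36 to 49 on the arrays of biological replicate 2. Leaving out 1 array or replicate gave 0.46 to 0.68 for TLR1, 0.38 to 0.82 for CASP4, -0.65 to 0.066 for TLR9 (above 0 only without biological replicate 2) and -0.24 to 0.13 for A_11_P0000019665. The last was above 0 without biological replicate 1 (0.0032) or 2 (0.049), and without array 5 of pH 7.0 (0.13), array 1 of pH 7.4 (0.00045) or array 6 of pH 7.4 (0.069).

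Counts of calls over all probes, 0 higher and 0 lower as reported, were less stable. They were 396 and 294 with the 12 arrays fitted singly, 10 and 4 under normexp as given, 17 and 7 with median scaling, 90 and 44 with probes well above background on all arrays, and 122 and 70 with a trended, robust prior. With the percentile taken over spots, an alternative added after seeing the data, they were 14 and 6. Leave-outs ranged from 0 to 203 higher and 0 to 447 lower: 203 and 74 without biological replicate 1, 200 and 447 without 2, 10 and 5 without array 6 of pH 7.0, and 4 and 0 without array 1 of pH 7.4. The smallest adjusted p lay close to the threshold in the reported fit. Signal over background limits TLR1, TLR9 and CASP4, which were well above it on 8, 9 and 6 of 12 arrays.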
